A study of Rattus norvegicus with 2 samples.

Results

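The 44 genes described here act in apoptosis or in the p53 pathway, and were listed by symbol. A gene was taken as measured when the array annotation gave a probe set that symbol and no other, and where several did, the brightest by its mean of the 2 arrays was taken. By this rule 40 of the 44 genes were measured, of 18166 named genes in all. Mcl1, Bbc3 and Btg2 paired with no probe set, and both probe sets of Bax, 2 in number, also paired with another gene, so these 4 genes have no value here. The genes were compared between 2 Affymetrix whole-transcript rat arrays. The first array held total RNA of undifferentiated C6 glioma, a glial tumor line of the rat. On the other were small molecule-induced neurons (SMiNs), C6 cells kept for 35 days in 20 μM of the GSK3 inhibitor CHIR99021 and 100 μM forskolin, an activator of adenylyl cyclase that raises cAMP. The labels give the treatment text and a medium with 10% FBS for both samples, while the study's methods describe untreated C6 glioma in serum and, for SMiNs, a medium with N2, B27, BDNF and GDNF in place of serum on a Matrigel coat. Small molecules, medium, coating and time in culture cannot be told apart.

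In apoptosis through mitochondria, BH3-only proteins sense stress and either block the survival members of the BCL2 family or engage the effectors, which open the outer mitochondrial membrane. Cytochrome c then leaves the mitochondria and assembles with Apaf1 into the apoptosome, where caspase-9 is activated, while IAP proteins restrain caspases and Diablo restrains the IAP proteins. Death receptors reach caspase-8 through adaptors such as Fadd. The transcription factor p53 is held low by Mdm2 and Mdm4, and it switches on genes of cell cycle arrest, DNA repair and apoptosis. Neurons are known to keep little apoptosome activity after they leave the cell cycle, and loss of p53 function is frequent in glioma.

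Each value is a deposited log2 signal of a probe set, and the medians over 36685 probe sets were 4.79 for C6 glioma and 4.85 for the SMiN array. Each condition had 1 array, which leaves no replicate error and no test between conditions, so a fold below compares these 2 arrays only. Because the RNA came from whole cultures, fewer cells of a type and less RNA per cell cannot be told apart. Signal was read against a floor, the 95th percentile of the 1360 olfactory and vomeronasal receptor probe sets, whose genes these cells should not express. The floor lay at 4.79 for C6 glioma and 4.89 for the SMiN array, and a gene that reached it on 1 array or both is called detected. Of the receptor probe sets, 59 were higher by 2-fold or more in SMiNs and 5 were lower by as much. Of 6 neuronal markers, 1 was at least 2-fold higher in SMiNs (Tubb3, 2.24-fold) and none was lower by that fold, with Dcx and Syt1 below the floor on both arrays and Rbfox3 at 4.94 and 4.90. Of 6 glial and glioma markers, 3 (Vim, Nes and Cspg4) were lower by 2-fold or more in SMiNs, while S100b was 1.72-fold higher and Olig2 had equal values. The summed linear signal of the 6 was 6605 for C6 glioma and 3139 for SMiNs, and without Vim it was 1352 and 1357. The part of this difference in the results below was not tested. Of 6 microglia and macrophage markers, 5 lay below the floor on both arrays, as did 3 of 6 fibroblast markers, of which Pdgfrb was 5.39-fold lower in SMiNs.

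Most of the 40 measured genes differed little between the arrays. The survival gene Bcl2 and the apoptosome gene Apaf1 were lower in SMiNs, and the cytochrome c gene Cycs was higher. Of the 40 genes, 1 (2.50%) had a signal at least 2-fold higher in SMiNs, against 4.27% of all named genes, and for 2 (5.00%) it was that much lower, against 8.12%. At 1.5-fold, 3 genes (7.5%) were higher, against 11.3% of all named genes, and 5 (12.5%) were lower, against 16.7%. Each share of the pathway genes lay below that of all named genes, but 1 gene of 40 is 2.50%, so the gaps amount to few genes. The genes past 2-fold are also among those counted at 1.5-fold. The remaining 32 genes differed by less than 1.5-fold. The log2 difference of SMiN minus C6 glioma had a median of 0 for the 40 genes and 0 for all named genes. Among the 40, 17 genes were higher in SMiNs, 17 lower and 6 of exactly equal value. Of all 18166 named genes, 4121 had equal values. The median size of the difference, without its sign, was 0.26 for the pathway genes and 0.26 for all named genes. Of the 40 genes, 36 were detected, and Pmaip1, Casp1, Birc3 and Perp were under the floor on both arrays.

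**Figure D1:**
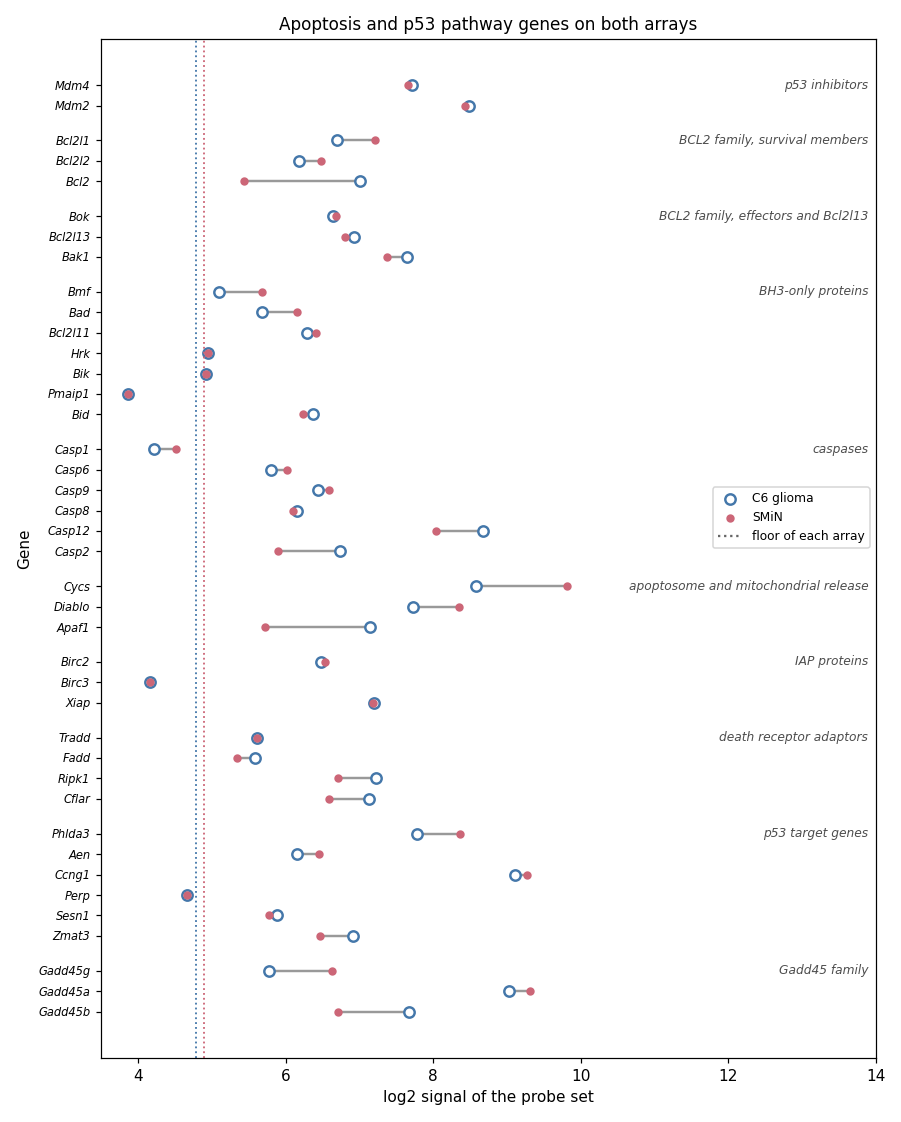
Log2 signal of the 40 measured apoptosis and p53 pathway genes (horizontal axis) on the C6 glioma array (open circles) and that of SMiNs (filled circles), 1 array each, grouped by role, with dotted lines at the floor of each array (4.79 and 4.89). The long segments belong to Bcl2 and Apaf1, which run to lower signals in SMiNs, and to Cycs, which runs to a higher one, while most other pairs of circles lie close together.

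Promoters are shown for 2 pairs picked for opposite differences, the apoptosome genes Cycs and Apaf1 and the family members Gadd45g and Gadd45b. They are RefSeq sequences of build GRCr8, 300 bases each, from 250 bases before to 50 bases after the annotated start, read 5′ to 3′ on the strand of the gene. Capitals mark the half-site TGACG of the cAMP response element (CRE), GCGCATGCG of the factor NRF1, and CCAAT, each searched on both strands, so that they may read CGTCA or CGCATGCGC.
Cycs, chr4:80984718-80985017, minus strand: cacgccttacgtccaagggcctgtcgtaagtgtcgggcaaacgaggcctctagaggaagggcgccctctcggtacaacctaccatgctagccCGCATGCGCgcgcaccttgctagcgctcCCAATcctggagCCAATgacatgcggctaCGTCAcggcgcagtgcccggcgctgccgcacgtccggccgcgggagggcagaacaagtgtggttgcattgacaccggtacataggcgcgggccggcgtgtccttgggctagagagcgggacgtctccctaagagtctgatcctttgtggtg
Apaf1, chr7:27466723-27467022, minus strand: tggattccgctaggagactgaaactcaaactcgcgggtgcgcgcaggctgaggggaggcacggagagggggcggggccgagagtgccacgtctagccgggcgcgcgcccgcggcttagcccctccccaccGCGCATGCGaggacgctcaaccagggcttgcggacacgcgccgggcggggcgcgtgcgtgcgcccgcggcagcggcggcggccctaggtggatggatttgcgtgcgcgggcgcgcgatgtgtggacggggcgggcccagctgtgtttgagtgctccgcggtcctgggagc
Gadd45g, chr17:13530302-13530601, minus strand: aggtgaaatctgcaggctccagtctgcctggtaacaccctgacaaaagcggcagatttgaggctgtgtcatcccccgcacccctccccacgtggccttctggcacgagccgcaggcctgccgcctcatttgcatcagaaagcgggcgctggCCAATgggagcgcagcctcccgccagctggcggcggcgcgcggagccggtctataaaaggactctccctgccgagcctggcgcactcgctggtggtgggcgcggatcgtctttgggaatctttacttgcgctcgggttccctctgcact
Gadd45b, chr7:9430669-9430968, minus strand: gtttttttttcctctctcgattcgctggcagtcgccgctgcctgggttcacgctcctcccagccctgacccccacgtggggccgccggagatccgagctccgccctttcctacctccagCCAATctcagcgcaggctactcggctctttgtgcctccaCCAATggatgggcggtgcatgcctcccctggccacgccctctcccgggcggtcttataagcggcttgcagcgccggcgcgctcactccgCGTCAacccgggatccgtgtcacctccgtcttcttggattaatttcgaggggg

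The NRF1 sequence was present in the promoters of both Cycs, which was higher in SMiNs, and Apaf1, which was lower. It stood in 1.52% of all 33469 promoters of this length and in 3 of the 33 measured pathway genes with a promoter sequence, the third being Fadd. The CRE half-site was found in Cycs and Gadd45b but not in Gadd45g or Apaf1, in 21.2% of all promoters and in 12 of the 33 genes. The whole CRE, TGACGTCA, occurred in 1.83% of all promoters and in none of the 33. CCAAT was found in Cycs, Gadd45b and Gadd45g, in 37.5% of all promoters and in 14 of the 33 genes. The p53 half-site, searched by its consensus on both strands, was found in 7.98% of all promoters and in 5 of the 33 genes, Aen, Ccng1, Cflar, Gadd45a and Sesn1. The percents count promoter sequences, while a pathway gene is counted when any of its promoter sequences held the match, so the units differ. A match describes letters only, and these windows hold no more than the start of each gene.

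Among the survival members of the BCL2 family, Bcl2 differed most. Its log2 signal went from 7.00 for C6 glioma to 5.43 for the SMiN array, both above the floor, so it was 2.97-fold lower in SMiNs. Of the 11306 detected named genes, 4.63% were lower by as much or more. Its relatives were on the other side. Bcl2l1, which encodes BCL-XL, had signals of 6.70 and 7.22 in the same order, 1.43-fold higher, and Bcl2l2, which encodes BCL-W, had 6.19 and 6.49, 1.23-fold higher. Of these 3 survival genes only Bcl2 passed 1.5-fold as deposited, while under quantile normalization Bcl2l1 (0.73 on the log2 scale) passed it too.

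The measured effectors and BH3-only genes stayed within 1.5-fold, as did most named genes, of which 11.3% were higher by that fold and 16.7% lower. Bak1, an effector that forms pores in the outer membrane, had 7.65 in C6 glioma and 7.37 in SMiNs, and Bok, a relative of the effectors, had 6.64 and 6.69. Bcl2l13, a BCL2-like protein that also acts in mitophagy, had 6.93 and 6.81. Of the 7 measured BH3-only genes, 3 were higher in SMiNs, 1 was lower and 3 had equal values, with differences from -0.14 to 0.58 on the log2 scale. Bmf, which is linked to the cytoskeleton and to loss of attachment, was nearest to the fold, with 5.10 and 5.68 and a log2 difference of 0.58, just under the limit. Bad, which growth factor signaling holds inactive by phosphorylation, had 5.69 and 6.15, 1.38-fold higher. Bcl2l11, which encodes BIM, had 6.29 and 6.41, and Bid, which caspase-8 cleaves, had 6.37 and 6.23. The p53-induced gene Pmaip1, which encodes NOXA, was at 3.86 on both arrays, below the floor.

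The 3 genes of the apoptosome and of mitochondrial release all passed 1.5-fold as deposited, in different directions. Cycs, cytochrome c of the respiratory chain, had log2 signals of 8.59 for C6 glioma and 9.81 for SMiNs, 2.33-fold higher. A second, dimmer probe set of Cycs had 6.44 and 7.90, 2.75-fold higher, the same direction. Cycs has processed pseudogene copies in rodents, and whether they add to these probe sets was not tested. Apaf1, the scaffold that binds cytochrome c, had 7.15 for C6 glioma and 5.72 for SMiNs, so it was 2.68-fold lower. Diablo, which frees caspases from IAP proteins, had 7.72 and 8.36, 1.55-fold higher, or 1.49-fold with each array centred on its median. Thus the gene of the released protein was higher and the gene of its cytosolic partner was lower on the same array. Of the detected named genes, 3.56% were higher by as much as Cycs or more, and 6.06% were lower by as much as Apaf1 or more.

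None of the 6 caspase genes differed by 2-fold. Over all named genes 4.27% were higher by that fold and 8.12% lower, so few of any 6 genes would pass it. Casp2, an initiator that responds to DNA damage and to failed division, was 1.79-fold lower in SMiNs, with log2 signals of 6.74 and 5.90. Casp12, studied in rodents for its place at the endoplasmic reticulum, had 8.68 and 8.04, 1.56-fold lower, or 1.37-fold under quantile normalization. As deposited, no other caspase gene passed 1.5-fold. Casp9, the caspase of the apoptosome, had 6.44 and 6.58, so it did not share the lower signal of Apaf1. Casp8, the initiator at death receptors, had 6.15 and 6.10, Casp6, an executioner, had 5.81 and 6.02, and Casp1, the inflammasome caspase, stayed below the floor with 4.21 and 4.52.

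The IAP genes had nearly equal signals. Xiap, a direct caspase inhibitor, had 7.20 in C6 glioma and 7.18 in SMiNs, and Birc2, a ubiquitin ligase of TNF receptor signaling, had 6.48 and 6.54. Birc3, the NF-κB-induced relative of Birc2, was at 4.17 on both arrays, below the floor. At death receptors, 3 of the 4 adaptor genes were lower in SMiNs and Tradd had the same value, 5.61, on both arrays. Cflar, which encodes the caspase-8 inhibitor FLIP, had 7.13 and 6.59, 1.45-fold lower. Ripk1, a kinase shared by survival and death signaling, had 7.23 and 6.71, 1.43-fold lower, and Fadd had 5.58 and 5.35. As deposited none of the adaptor genes reached 1.5-fold, by which 11.3% of all named genes were higher and 16.7% lower. Cflar passed it with each array centred on its median (1.52-fold lower). The median difference of the 4 adaptor genes was -0.38.

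The p53 inhibitors and the p53 target genes differed little. Mdm2, both an inhibitor and a target of p53, had log2 signals of 8.49 for C6 glioma and 8.43 for SMiNs, and Mdm4 had 7.72 and 7.66. The direction of both turned under quantile normalization. Of the 6 measured target genes, 3 were higher in SMiNs, 2 were lower and Perp, a membrane protein, was at 4.67 on both arrays, below the floor. The differences ran from -0.46 for Zmat3, an RNA-binding protein, to 0.58 for Phlda3, which restrains AKT at the membrane. Phlda3 had signals of 7.79 and 8.36, 1.49-fold higher, and Zmat3 had 6.92 and 6.46, 1.37-fold lower. Ccng1, which encodes cyclin G1, was at 9.11 and 9.27. Aen, a nuclease of apoptosis, had 6.16 and 6.46, and Sesn1, a stress-induced inhibitor of mTORC1, had 5.89 and 5.78. No p53 target of this list passed 1.5-fold as deposited, against 11.3% of all named genes higher and 16.7% lower by that fold. Phlda3 passed it under quantile normalization (1.70-fold).

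The Gadd45 genes, which encode small stress proteins that bind cell cycle regulators and the kinase MEKK4, differed in opposite directions. Gadd45b had log2 signals of 7.67 for C6 glioma and 6.71 for SMiNs, 1.95-fold lower. Gadd45g had 5.78 and 6.63, 1.81-fold higher. Gadd45a, the member that p53 induces, was between them with 9.03 and 9.31, 1.21-fold higher. Of the detected named genes, 14.1% were lower by as much as Gadd45b or more and 7.70% were higher by as much as Gadd45g or more. With each array centred on its own median, Gadd45b was at -1.02 on the log2 scale and so passed 2-fold.

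**Figure D2:**
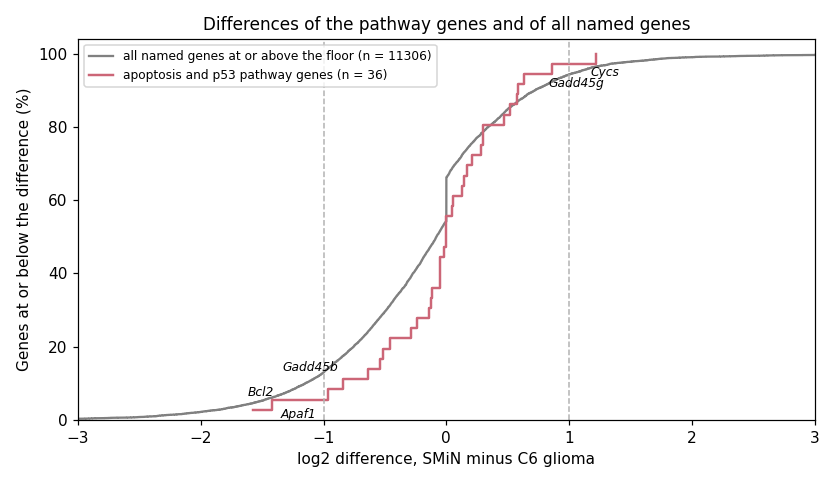
Share of genes (vertical axis, percent) at or below a given log2 difference, SMiN minus C6 glioma (horizontal axis, drawn from -3 to 3), for the 36 pathway genes and all 11306 named genes that reached the floor, with dashed lines at 2-fold. The line of the pathway genes lies below that of all named genes on most of the negative side, and of the pathway genes only Bcl2, Apaf1 and Cycs stand outside the dashed lines.

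Restricted to detected genes, the same counts of 1 higher and 2 lower at 2-fold came from 36 pathway genes, against 5.75% and 12.9% of the 11306 named genes. At 1.5-fold, 3 of the 36 genes were higher and 5 of the 36 lower, against 13% and 26.1% of the 11306. Each share of the pathway genes again lay below that of the named genes, by few genes. The median difference was 0 for the 36 genes and -0.08 for the 11306, and the median size without sign was 0.28 and 0.43. These are descriptions of 1 pair of arrays, in which genes are not replicates.

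A further 90 genes of apoptosis and of the p53 pathway were listed, of which 77 were measured. In this list 4 genes (5.19%) were higher by 2-fold or more in SMiNs and 12 (15.6%) were lower by as much. The shares of all named genes were 4.27% and 8.12%. Restricted to detected genes, the same 4 and 12 came from 68 genes, against 5.75% and 12.9% of the detected named genes. The share of lower genes was above that of the detected named genes, and the share of higher genes was close to it. The median difference was 0, with 26 genes higher, 37 lower and 14 of exactly equal value. For the 68 detected genes it was -0.09, against -0.08 for all detected named genes. The genes lower by 2-fold or more came from all 4 groups of the list, and those higher by as much from 2 of them.

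Further measured genes of the BCL2 family, its partners and mitochondria numbered 19. Of these, 3 (15.8%) were lower by 2-fold or more and none was higher by as much. The shares over all named genes were 8.12% and 4.27%, and over detected named genes 12.9% and 5.75%. In groups this small the gaps amount to few genes. Htra2, a protease that leaves mitochondria with cytochrome c and antagonizes IAP proteins, had log2 signals of 7.61 for C6 glioma and 5.97 for SMiNs, 3.11-fold lower. It thus differed in the opposite direction from Diablo, which has the same action on IAP proteins. Bnip3l, a receptor of mitophagy, was 2.31-fold lower, and Vdac2, an outer membrane channel that binds Bak1, was 2.12-fold lower, or 1.85-fold under quantile normalization. Of 26 further genes of caspases, death receptors and IAP proteins, 4 (15.4%) were at least 2-fold lower and 2 (7.69%) that much higher. Dapk1, a calmodulin-dependent death kinase, had 7.23 and 4.94, 4.91-fold lower, and was the only gene of the 77 past 4-fold. Its SMiN value lay just above the floor of 4.89, near which a further fall could not have been seen. Ripk3 and Mlkl, the kinase and the membrane executor of necroptosis, had 7.20 and 5.79 and 8.29 and 6.89, so both were lower, by 2.64-fold each. Parp1, a DNA damage sensor that caspases cleave, was 2.72-fold lower. The genes higher by 2-fold or more were the death receptor Fas, with 4.88 and 5.92 (2.06-fold), and Pdcd5, with 7.75 and 8.75, just past the limit. The C6 glioma value of Fas lay just above the floor of 4.79. With each array centred on its median, Fas (0.98) and Pdcd5 (0.94) fell short of 2-fold.

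Of 10 further regulators of p53, 1 (10%) was at least 2-fold lower and none was that much higher. Over all named genes these shares were 8.12% and 4.27%. The gene past 2-fold was Pml, the organizer of nuclear bodies (2.12-fold, or 1.82-fold under quantile normalization). Of 22 further p53 target genes, 2 (9.09%) were higher by 2-fold or more and 4 (18.2%) were lower by as much. Dram2, a membrane protein linked to autophagy, had 6.98 in C6 glioma and 8.40 in SMiNs, 2.67-fold higher, and Tp53inp1, a stress protein that acts with p53 and in autophagy, had 6.94 and 8.24, 2.47-fold higher. The related Dram1 went the other way, with 5.97 and a value under the floor, 4.83, which makes it lower by at least 2.11-fold. Gtse1, a protein of S and G2 phase that restrains p53, was 2.36-fold lower, the antiproliferative gene Btg1 was 2.30-fold lower, and the ferrireductase gene Steap3 was 2.16-fold lower, or 1.90-fold under quantile normalization. Cdkn1a, the p53 target that encodes the kinase inhibitor p21, had 7.88 and 8.17, 1.23-fold higher.

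**Figure D3:**
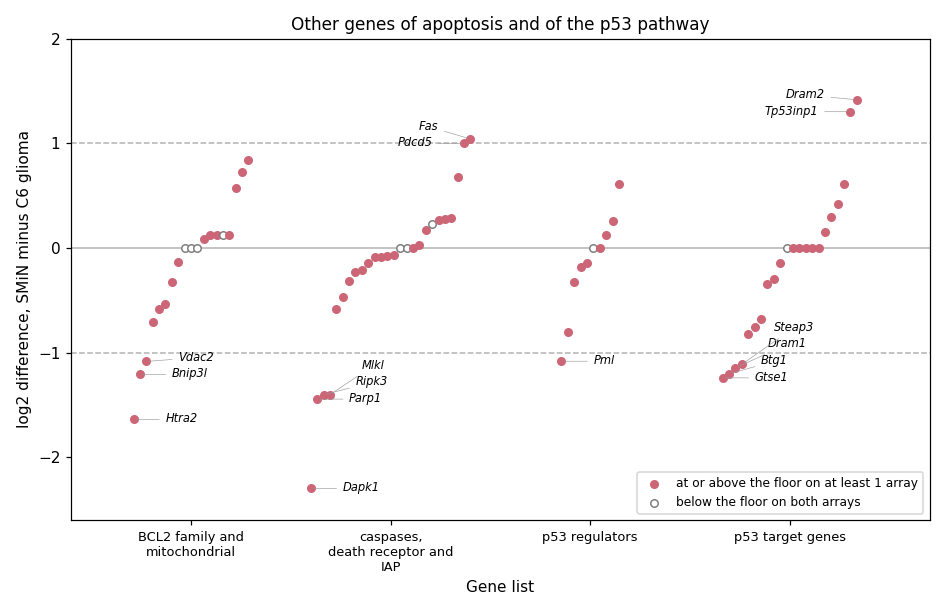
Log2 difference, SMiN minus C6 glioma (vertical axis), of the 77 further apoptosis and p53 pathway genes in 4 groups, each point 1 gene from 1 array per condition, ordered by difference within a group, with dashed lines at 2-fold and names for genes past them. The 12 named genes below the lower line include Dapk1 at -2.30, and the 4 above the upper line are Dram2, Tp53inp1, Fas and Pdcd5.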

How the data were processed

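Total RNA of 2 samples was measured by the authors on Affymetrix whole-transcript arrays, scanned on a GCS3000 scanner and processed in the maker's Command Console software. The deposited table holds a log2 signal for each probe set, and how it was summarized and normalized is not given in the sources used here. Base 2 was taken because the differences then give the folds that the study prints for the same arrays. Values were used as deposited, and a gene was compared with itself only, since signal depends on the probe set. With 1 array per condition the number of arrays limits the precision, and no batch could be checked.

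Of 36685 probe sets, 18511 had 1 gene symbol in the platform annotation, 575 had several and 17599 are unnamed here. The members, gene lists and folds of 2 and 1.5 were chosen with earlier results of these arrays known. All members could be named, with both signals for those past 1.5-fold and at least 1 per role. Further genes were named when they differed by 2-fold or more and their brighter value reached the floor. Cdkn1a was named after its value was seen. "At least" marks folds computed against the floor. Promoters were matched by symbol, for 33 of 40 genes.

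The alternatives were median centring, quantile normalization, leaving out undetected genes, raising low values to the floor, averaging a gene's probe sets, leaving out equal values, and folds of 1.5 and 4. Counting was tested on simulated data. Python 3.11.15, numpy 2.4.6, pandas 2.3.3 and matplotlib 3.10.9 were used.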

Additional observations from a re-analysis of the deposited data

How the results depend on the processing

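Bcl2, Apaf1 and Cycs stayed past 2-fold in the same direction under all 4 alternatives that recompute a gene's difference. These were median centring, quantile normalization, the floor and the mean of all probe sets. The ranges were -1.63 to -1.46, -1.48 to -1.28 and 1.16 to 1.34. Of these genes and the 5 named next, only Cycs has more than 1 probe set, and all lie above the floor on both arrays. The floor therefore could not change them, and the mean of probe sets could change Cycs only. Centring moved every difference by the same -0.06. No paired analysis was possible because there is 1 array per condition, and no replicate could be left out. The other 5 pathway genes past 1.5-fold (Casp2, Casp12, Diablo, Gadd45b and Gadd45g) kept their direction under these 4 alternatives, but Casp12 (-0.46, quantile normalization) and Diablo (0.57, centring) dropped under 1.5-fold, and Bcl2l1 (0.73) and Phlda3 (0.77) under quantile normalization and Cflar (-0.60) under centring passed it. Smaller differences turned sign, for Bok and Birc2 under centring and for Bcl2l13, Bid, Casp8, Mdm2, Mdm4 and Xiap under quantile normalization, all at most 0.14 in size as deposited. Setting low values to the floor shifted the median of all named genes by 0.10, since the floors of the arrays differ. The count of pathway genes higher in SMiNs was 3 at 1.5-fold and 0 at 4-fold in place of 1 at 2-fold, and that of lower ones was 5 and 0 in place of 2. Of the 77 further genes, 9 were higher at 1.5-fold and 0 at 4-fold in place of 4, and 1 was lower at 4-fold in place of 12. With each array centred on its median, 2 of the 77 were higher in place of 4, without Fas and Pdcd5. Under quantile normalization 9 were lower in place of 12, without Vdac2, Pml and Steap3, and 5 were higher, with Triap1 (1.03) added. With genes of equal value left out, the median of the further genes was -0.15 in place of 0. Of the further genes, 37 were lower in SMiNs, 26 were higher and 14 were equal, so the equal values had held that median at 0. The same step gave 0.01 for the pathway genes and 0.02 for all named genes. Signal under the floor limits Pmaip1, Casp1, Birc3 and Perp, for which no difference was detectable, and Bik and Hrk lay so near it that a fall could not have been seen.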

Other observations

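Some genes of these lists had identical values on the arrays, as did 7312 of the 36685 probe sets (19.9%). Among the pathway genes these were Bik (4.92), Hrk (4.95), Tradd (5.61), Pmaip1 (3.86), Birc3 (4.17) and Perp (4.67), and among the further genes they were 14 of 77. Named after their values were seen, the p53 target Sesn3 had 9.09 on both arrays, the phosphatase gene Ppm1d had 6.92, Tigar had 5.97 and Ddb2 had 5.34, all above the floor. Of the 11306 detected named genes, 1364 had equal values. Equal values are not read as unchanged transcripts.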
